A study of Mus musculus with 6 samples.

Results

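The AP-1 genes examined were Fos, Fosb, Fosl1 and Fosl2 of the Fos family, Jun, Junb and Jund of the Jun family, and Atf3, Maff and Batf. All 10 genes encode proteins that bind DNA in pairs. They were chosen by gene symbol, as all probe sets that the platform annotation assigns to one of these genes alone, which gave 14 of the 45101 probe sets on the array. Each of Fosl1, Fosl2, Jun and Jund had 2 probe sets and the other 6 genes had 1. The RNA came from BALB/c retinas; this mouse strain is albino, and its eyes lack the pigment that screens light. The light damaged group (3 arrays) was kept in the dark for 1 week, exposed to 6000 lux of white fluorescent light for 6 h and sampled 24 h later. The dark adapted group (3 arrays) had the same week in the dark and no such exposure. The animals' age and whether an array holds 1 animal or a pool are not given in the sources used here, so the p-values reflect the spread among these 6 arrays alone, part or all of which may be technical.

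AP-1 is a family of paired transcription factors. A Fos protein cannot pair with itself and binds DNA together with a Jun protein, while Jun proteins can also pair with each other, and both kinds read short sites in promoters and enhancers through a basic region and a leucine zipper (bZIP). Atf3 is a stress-induced bZIP factor that can pair with Jun proteins, Maff is a small Maf protein without an activation domain of its own, and Batf pairs with Jun proteins in immune cells. Many of these genes are immediate early genes, switched on within minutes of a stimulus and often off again within hours. In mice c-Fos, the product of Fos, is known to be needed for the death of photoreceptors after strong light.

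At 24 h after light, the RNAs of Junb, Jun and Atf3 were higher, and no Fos family gene passed the test on its probe set with the highest mean, by which each gene was read. Junb rose 4.54-fold, Atf3 3.32-fold and Jun 2.97-fold, while Jund, the remaining Jun gene, and all 4 Fos genes did not pass. The 10 genes thus split into 3 that rose, 7 that did not pass and 0 that fell, against 1.74% of all 18193 genes that rose and 0.269% that fell (limma, adjusted p under 0.05). The median change of the 10 genes was 0.60 on the log2 scale, against 0.03 over all genes. Of the 10 changes 9 were positive, as were 10378 of all 18193. Changes of at least 2-fold upward were seen in 4 of the 10 genes (Fos, Jun, Junb and Atf3) and in 1.21% of all genes. In the same 4 genes all 3 light damaged values lay above all 3 dark adapted values, which held for 11.9% of all genes. The same-numbered arrays of both groups deviated together, and with the replicate number as a block 6 of the 10 genes rose, against 6.73% of all genes: Jun, Junb and Atf3 were joined by Fos, Fosl1 and Jund.

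**Figure D1:**
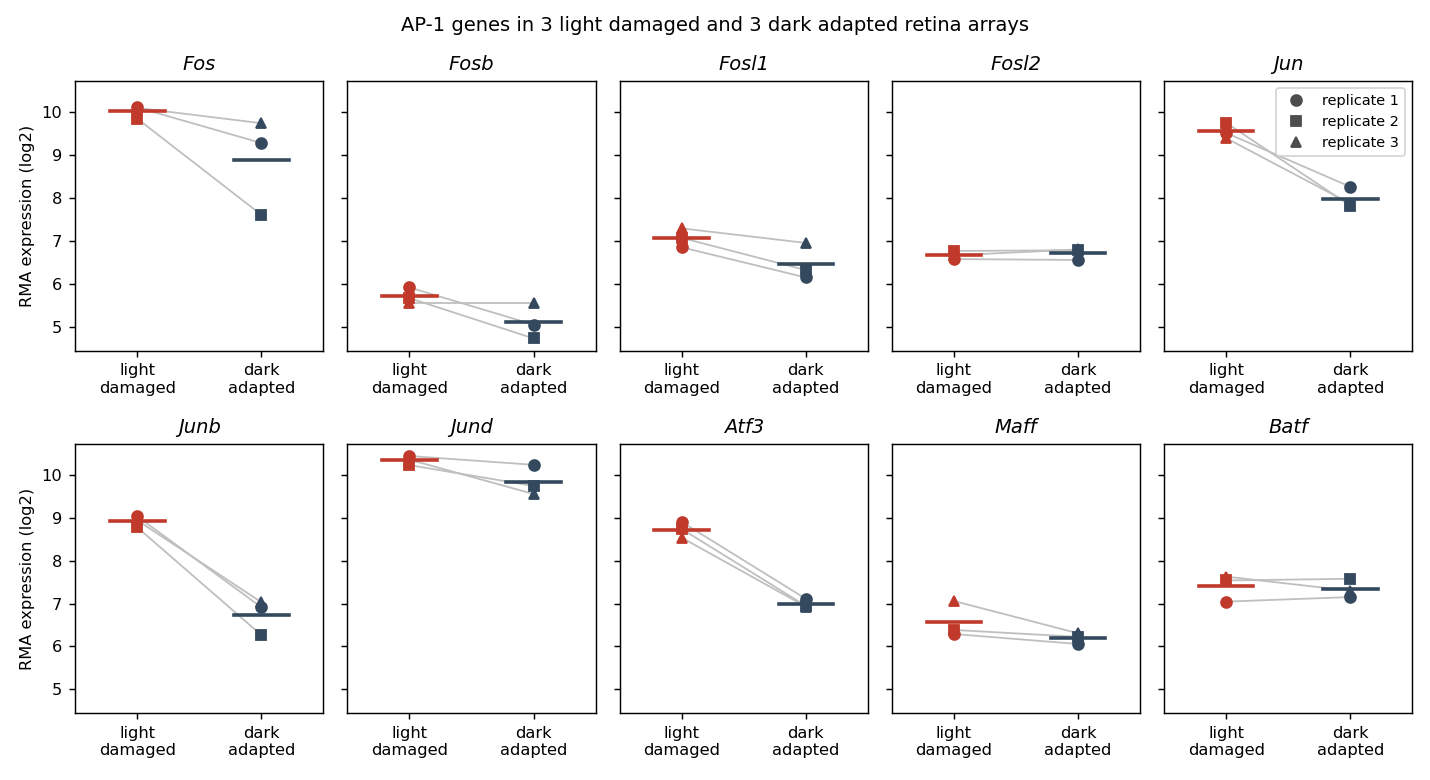
RMA expression (log2, vertical axis) of the 10 AP-1 genes in the 3 light damaged (red) and 3 dark adapted (blue) arrays, by the probe set with the highest mean. Bars are group means and grey lines join arrays of the same replicate number. The groups are far apart for Junb, Jun and Atf3, and the dark adapted values of Fos run from 7.61 to 9.74.

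The promoters of the 3 genes that rose and of Fos are shown because the first 3 moved together while Fos, the classic partner of Jun, did not pass the test. Each sequence is the stretch of 130 bases that ends just before the transcription start, read 5′ to 3′ on the gene's own strand, from RefSeq with the build GRCm38.p6. Capitals mark matches on either strand to TGACG, the core of the cyclic AMP response element, or to TGACATCA, an AP-1-like site.
Junb, chr8:84978749-84978878, minus strand: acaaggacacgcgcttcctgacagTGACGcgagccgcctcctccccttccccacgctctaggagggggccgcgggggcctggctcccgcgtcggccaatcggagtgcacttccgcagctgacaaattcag
Jun, chr4:95052223-95052352, minus strand: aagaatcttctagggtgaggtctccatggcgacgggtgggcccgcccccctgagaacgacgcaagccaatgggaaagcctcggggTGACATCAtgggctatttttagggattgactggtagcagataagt
Atf3, chr1:191183334-191183463, minus strand: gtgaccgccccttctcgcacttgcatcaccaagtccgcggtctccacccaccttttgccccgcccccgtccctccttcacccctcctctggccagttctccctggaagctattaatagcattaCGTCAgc
Fos, chr12:85473760-85473889, plus strand: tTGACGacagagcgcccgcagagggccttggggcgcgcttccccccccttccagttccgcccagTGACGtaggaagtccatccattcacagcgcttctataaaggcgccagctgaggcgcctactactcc

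The search covered the 250 bases before each start, on both strands, in the 11 RefSeq promoter entries of 9 members, 3 of which belong to Maff. Fosl1 was not matched. A member counts as found with a match in any of its entries, while the shares of all promoters are over single entries. The units therefore differ for Maff, with its 3 entries. The core TGACG was found for 6 of the 9 members and in 17.8% of all 32851 promoter entries. It lay from -106 to -102 in Junb, from -7 to -3 in Atf3, and from -129 to -125 and from -66 to -62 in Fos. Matches to TGACATCA were found in Jun, from -45 to -38, and in 1 entry of Maff, against 2.93% of all entries. The full cyclic AMP response element, TGACGTCA, which contains the core on both strands, was found in 1 entry of Maff only among the members (1.55% of all entries). No member had TGACTCA, the classic AP-1 site (4.46% of all entries), TTCNNNGAA, a site of STAT factors (7.02%), or the CArG box bound by serum response factor (1.47%), in this window. A TATAAA match was found in Fos, from -33 to -28, and in no other member (12.4% of all entries). These are matches of letters in a short window and say nothing of binding in these retinas.

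**Figure D2:**
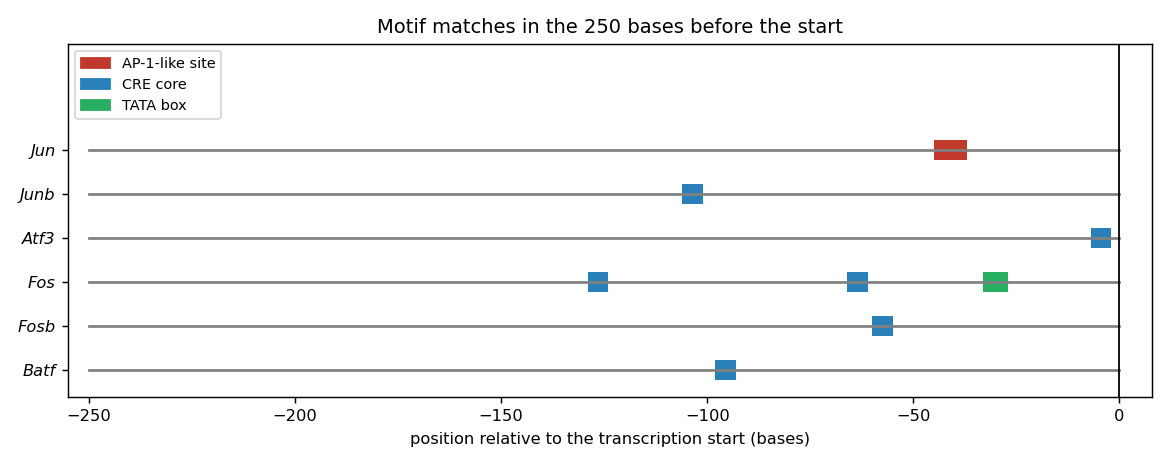
Positions of motif matches in the 250 bases before the transcription start (horizontal axis, bases, with the start at 0) of 6 AP-1 genes. Coloured blocks are matches to the AP-1-like site, the core of the cyclic AMP response element (CRE core) and the TATA box, the first in Jun only and the last in Fos only among the genes drawn.

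In the Jun family, Junb had the largest change of the 10 genes. Junb encodes a Jun protein that is a weaker activator than c-Jun at single AP-1 sites. Its values were 9.03, 8.78 and 8.94 in the light damaged arrays, against 6.91, 6.27 and 7.03 in the dark adapted arrays (log2, replicates 1 to 3). The lowest light damaged value lay well above the highest dark adapted one. The means were 8.92 ± 0.13 and 6.74 ± 0.41 (SD, n = 3 each), a change of 2.18 ± 0.21 (SE) with limma adjusted p = 0.0019. Within the same-numbered arrays the change was 2.12, 2.51 and 1.91.

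Jun, which encodes c-Jun, the target of the JNK kinases, had 2 probe sets. On the first, with the higher mean, it read 9.52, 9.75 and 9.39 in light damaged arrays, against 8.26, 7.82 and 7.87 in dark adapted arrays. The change was 1.57 ± 0.17 (SE) with limma adjusted p = 0.00292. The second probe set is annotated to the same transcript. It read 7.81, 8.04 and 7.83 in light damaged arrays, against 7.15, 6.86 and 7.08 in dark adapted arrays, and again the groups did not overlap. Its change was smaller, 0.87 ± 0.14 (SE), with adjusted p = 0.0331 over all probe sets, so the fold for Jun was 2.97 on one probe set and 1.82 on the other.

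Jund, whose RNA is abundant and little induced in many tissues, read 10.44, 10.23 and 10.35 in light damaged arrays, against 10.23, 9.74 and 9.55 in dark adapted arrays. The groups met, since light damaged replicate 2 and dark adapted replicate 1 both read 10.23. The change was 0.50 ± 0.19 (SE), with limma adjusted p = 0.342 and, with the replicate block, adjusted p = 0.0451 over genes and 0.0928 over all probe sets. The change of Jund was 0.29 with the mean of its probe sets and 0.33 with reference gene centring. A second probe set read 6.17, 6.54 and 6.89 in light damaged arrays, against 6.29, 6.62 and 6.46 in dark adapted arrays. Its change was 0.08 ± 0.20 (SE), with overlapping groups, and it did not pass with the block either (limma adjusted p = 0.812).

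Fos itself was bright in every array and differed widely among the dark adapted ones. It read 10.11, 9.85 and 10.10 in light damaged arrays, against 9.28, 7.61 and 9.74 in dark adapted arrays. All 3 light damaged values were higher, but by 0.36 only in the replicate 3 arrays and by 2.24 in the replicate 2 arrays. The means were 10.02 ± 0.15 and 8.88 ± 1.12 (SD, n = 3 each), and the change of 1.14 ± 0.47 (SE, 2.21-fold) had limma adjusted p = 0.407. With the replicate block it passed over genes (limma adjusted p = 0.0367) and not over all probe sets (0.104). Without dark adapted replicate 2 the change of Fos was 0.51, with limma adjusted p = 0.502.

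The other Fos genes encode FosB and the Fos-related antigens Fra-1 (Fosl1) and Fra-2 (Fosl2), and both Fra proteins lack the strong activation domain of c-Fos. Fosb read 5.91, 5.67 and 5.55 in light damaged arrays, against 5.05, 4.73 and 5.55 in dark adapted arrays. The replicate 3 arrays of both groups were equal, and dark adapted replicate 2 lay below the lower quartile of its array. The change was 0.60 ± 0.22 (SE), with limma adjusted p = 0.309 and adjusted p = 0.0664 with the block. In the Fos family 3 of 4 genes were higher with an unadjusted limma p under 0.05, which held for 8.58% of all genes.

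Fosl1 on its first probe set, the one with the higher mean, read 6.85, 7.07 and 7.29 in light damaged arrays, against 6.15, 6.32 and 6.95 in dark adapted arrays. The groups overlapped by 1 array on each side, and the change was 0.60 ± 0.22 (SE), with limma adjusted p = 0.338 and adjusted p = 0.0135 with the block. The second probe set read 6.01, 6.15 and 6.10 in light damaged arrays, against 5.10, 5.39 and 5.40 in dark adapted arrays. There the groups did not overlap, and the change of 0.80 ± 0.13 (SE, 1.74-fold) passed over all probe sets (adjusted p = 0.0422). Both Fosl1 probe sets thus had positive changes of similar size, and only the second passed without the block.

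Fosl2 had 2 probe sets that differed in their change. On the first, with the higher mean, it read 6.58, 6.76 and 6.66 in light damaged arrays, against 6.55, 6.78 and 6.80 in dark adapted arrays, a change of -0.04 ± 0.13 (SE, limma adjusted p = 0.969). On the second it read 5.94, 5.83 and 5.95 in light damaged arrays, against 5.30, 5.32 and 5.49 in dark adapted arrays. The groups overlapped on the first and were apart on the second, where the change was 0.54 ± 0.12 (SE), with adjusted p = 0.116 over all probe sets and 0.0292 with the block. The sign for Fosl2 therefore depended on the probe set, and the mean of both gave 0.25 (limma adjusted p = 0.469).

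Over all 14 probe sets, 5 rose (Junb, Atf3, both of Jun and the second of Fosl1), none fell and 9 did not pass, against 0.913% of 45037 probe sets that rose. In 7 of the 14 the light damaged values all lay above the dark adapted ones, against 8.99% of all probe sets. With any 1 array left out, and on arrays centred on reference genes, 3 of the 14 passed. The second probe sets of Jun and Fosl1 lost the call (limma adjusted p between 0.0537 and 0.37). The share of all probe sets that passed under these settings was not counted. Centring lowers every change, as the reference genes were on average higher in light damaged arrays (Actb most, by 0.70).

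**Figure D3:**
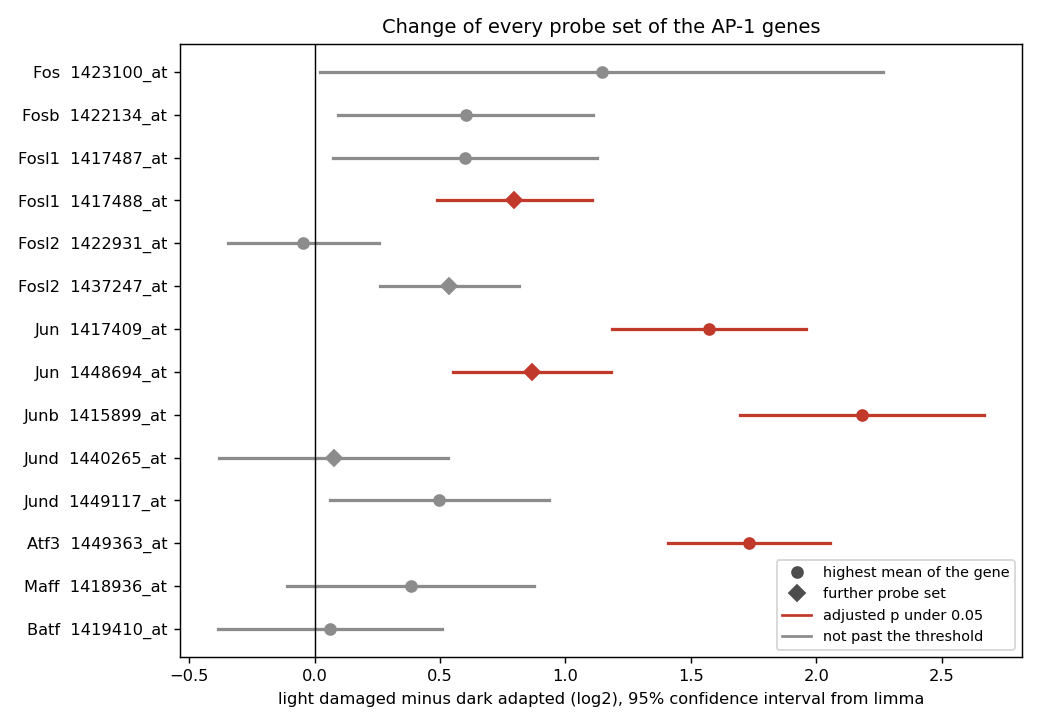
Light damaged minus dark adapted (log2, horizontal axis) for each of the 14 probe sets, with limma's 95% confidence interval. Circles are the probe set with the highest mean of each gene, diamonds the further ones, and red marks an adjusted p under 0.05 over all probe sets. The 2 probe sets of Jun differ in size (1.57 and 0.87) and those of Fosl2 in sign (-0.04 and 0.54).

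Atf3, which represses or activates depending on its partner and is induced by many kinds of cell stress and nerve injury, read 8.90, 8.74 and 8.54 in light damaged arrays, against 7.11, 6.95 and 6.93 in dark adapted arrays. Every light damaged array was higher than every dark adapted one, by 1.79, 1.79 and 1.61 in the same-numbered arrays. The means were 8.73 ± 0.18 and 6.99 ± 0.10 (SD, n = 3 each), and the change of 1.73 ± 0.14 (SE) had limma adjusted p = 0.00111. Of the 10 genes Atf3 had the narrowest dark adapted range, 0.18, and the smallest p.

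Maff read 6.29, 6.39 and 7.06 in light damaged arrays, against 6.06, 6.22 and 6.31 in dark adapted arrays. Light damaged replicate 3 stood above the rest, and replicate 1 of that group lay below the highest dark adapted value. The change was 0.38 ± 0.21 (SE, limma adjusted p = 0.618), and without light damaged replicate 3 it was 0.14. Batf read 7.05, 7.54 and 7.63 in light damaged arrays, against 7.15, 7.58 and 7.30 in dark adapted arrays, with groups that overlapped throughout. Its change was 0.06 ± 0.19 (SE, limma adjusted p = 0.971), and its sign turned on arrays quantile normalized again (-0.0077) and on arrays centred on reference genes (-0.11).

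Jun and Fos genes were then compared in their changes. The Jun family mean was 9.60 ± 0.05 in light damaged and 8.19 ± 0.27 in dark adapted arrays, and the Fos family mean was 7.37 ± 0.03 in light damaged and 6.79 ± 0.45 in dark adapted arrays (log2, SD, n = 3 each). The family means differed between the groups by 1.42 for Jun and 0.57 for Fos, so the Jun change exceeded the Fos change by 0.84. In the same-numbered arrays this excess was 0.59, 0.66 and 1.27, positive in all 3. No p is given, since these genes were chosen with results of these data known. With the mean of each gene's probe sets the excess was 0.56.

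**Figure D4:**
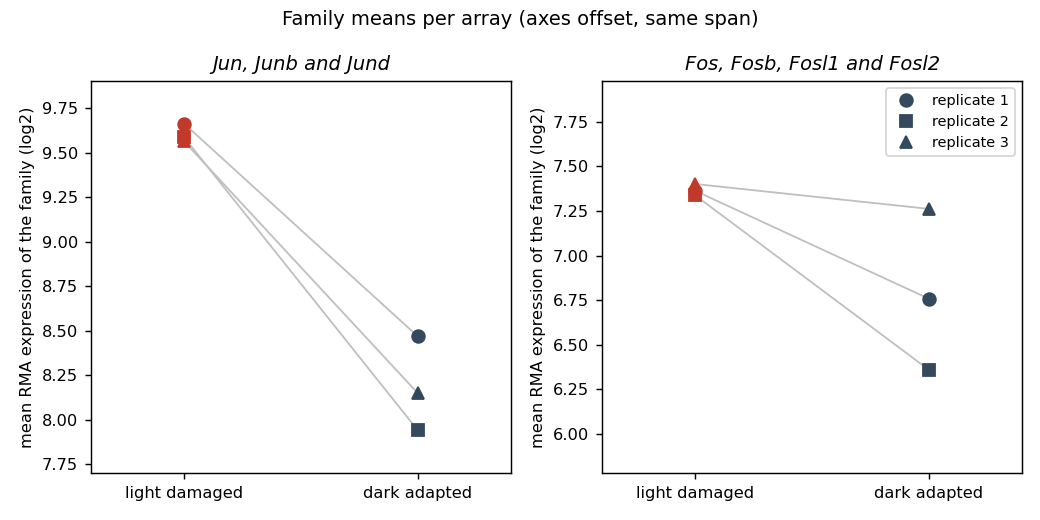
Mean RMA expression (log2, vertical axis) of the Jun family and of the Fos family in each light damaged (red) and dark adapted (blue) array, with grey lines joining same-numbered arrays. Both axes span the same number of log2 units, and the dark adapted arrays differ more among themselves in the Fos family (6.36 to 7.26) than in the Jun family (7.94 to 8.47).

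Within the families 9 pairs of genes were compared by the difference of their changes (exact two-sided permutation tests over the 6 arrays, where 3 against 3 cannot give a p below 0.1). The change of Junb exceeded that of Jund by 1.68 ± 0.30 and the change of Jun exceeded that of Jund by 1.08 ± 0.18 (SE), each with an exact p = 0.1, the smallest possible, and p = 0.18 adjusted over the 9 pairs. The within-array differences of the 2 groups did not overlap in either pair. Junb and Jun differed in change by 0.61 ± 0.27 (SE) with overlap between the groups (exact p = 0.2, adjusted 0.3), and by 0.96 with the mean of probe sets. On its probe set with the higher mean, Fosl2 had a smaller change, with a difference of -1.19 ± 0.69 to Fos, -0.65 ± 0.28 to Fosb and -0.64 ± 0.23 to Fosl1 (SE), each with an exact p = 0.1 and adjusted p = 0.18. Without dark adapted replicate 2 the differences of Fosl2 to Fos and Fosb were -0.52 and -0.42, and with the mean of probe sets that to Fosb was -0.36 (exact permutation p = 0.3). The 3 remaining Fos pairs had exact p-values of 0.5 to 1. None of the 9 differences could pass the threshold by this exact test, whose smallest p is 0.1.

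The arrays differed in how low the members fell. Dark adapted replicate 2 held the lowest of the 6 values for 4 genes (Fos, Fosb, Jun and Junb), dark adapted replicate 1 for 3 and dark adapted replicate 3 for 2. In 7 of the 10 genes the dark adapted SD was larger than the light damaged SD. Neither this nor the array with the lowest value was counted over all genes. For Fos the dark adapted values spanned 2.14 and the light damaged ones 0.26 on the log2 scale.

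Other genes of the pathway were read as 3 lists. Of 15 measured kinases and factors upstream of AP-1 (JNK, ERK and p38 kinases, serum response factor and its Elk partners) none passed, and the median change was 0.19. Map3k1, a kinase that feeds the JNK pathway, had the smallest p, with values of 7.85, 7.74 and 7.79 in light damaged arrays, against 7.38, 7.22 and 7.20 in dark adapted arrays. Its change was 0.53 ± 0.12 (SE, limma adjusted p = 0.0852). With the replicate block 2 of the 15 rose, against 6.73% of all genes. They were Map3k1 and Map3k5 (limma adjusted p = 0.0128 and 0.032 with the block), Map3k5 named after its values were seen.

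Among 21 measured bZIP factors outside the 10 members 1 rose and 20 did not pass, against 1.74% of all genes that rose. The median was 0.29, and 3 rose with the replicate block, against 6.73% of all genes. The gene that rose without the block was Atf5, a stress-regulated relative of Atf4, by 0.93 ± 0.17 (SE, limma adjusted p = 0.0362). Nfe2l2 (0.41) and Ddit3 (0.56), named after their values were seen, passed only with the replicate block (adjusted p = 0.0416 and 0.019). Jdp2, a bZIP repressor that binds Jun proteins, changed by 0.31 and did not pass (limma adjusted p = 0.461).

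Among 17 measured textbook AP-1 target genes 5 rose and 12 did not pass, against 1.74% of all genes that rose. The median was 0.88, and 12 rose with the replicate block, against 6.73% of all genes. Cd44, the hyaluronan receptor, read 9.67, 9.53 and 9.80 in light damaged arrays, against 7.39, 6.46 and 7.35 in dark adapted arrays, a 6.06-fold change (limma adjusted p = 0.00187). Vim, the intermediate filament vimentin, changed by 1.67 ± 0.16 and Ccnd1, cyclin D1, by 1.49 ± 0.17 (SE), with limma adjusted p = 0.002 and 0.00359. The other 2, named after their values were seen, were Timp1 (1.42) and Lif (1.06). Matrix protease genes of the list did not pass without the block, with changes of 1.76 ± 0.50 (SE) for Mmp3, 0.42 for Mmp14, -0.13 for Mmp9 and -0.0017 for Mmp13. Mmp3 read 7.47, 8.06 and 5.73 in light damaged arrays, against 5.14, 5.42 and 5.41 in dark adapted arrays. Mmp13 read 3.69 to 3.91 in all arrays, below their lower quartiles (4.98 to 5.11), so a change in it may not be seen. Vim is also 1 of the 5 reactive glia markers.

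**Figure D5:**
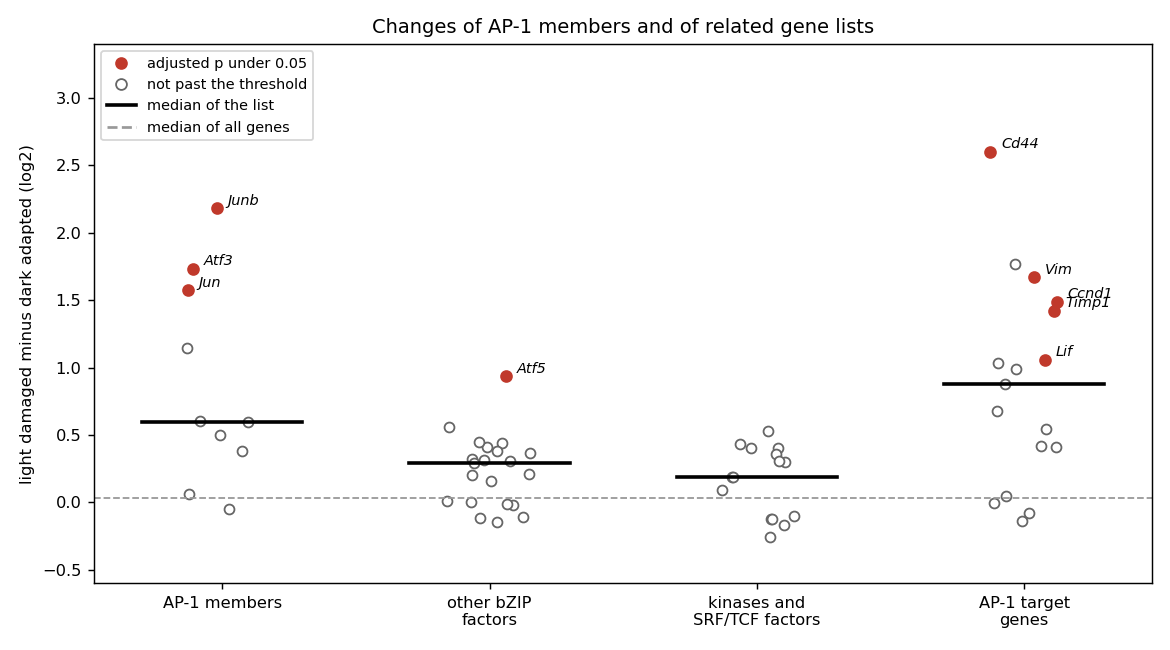
Light damaged minus dark adapted (log2, vertical axis) for each AP-1 member and each measured gene of 3 related lists. Red points passed an adjusted p under 0.05, the black bars are list medians (0.60, 0.29, 0.19 and 0.88 from left to right) and the dashed line is the median of all genes (0.03).

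By Pearson correlation over the 6 arrays, the genes most like Junb were Myo10, an unconventional myosin (r = 0.998), Cd44 (0.998) and Eef1a1, a translation elongation factor (0.997). Those most like Atf3 were the ribosomal protein gene Rps3a1 (0.998), Crym, a thyroid hormone binding protein (0.998), and Myo5b, another myosin (0.996), and those most like Fos were Sox13 (0.986), Fmnl2 (0.985) and Dio2 (0.982). For Junb and Atf3 the arrays fall into 2 groups, so r follows the group difference, and a high r does not need a large change: Eef1a1 and Rps3a1 changed by 0.33 and 0.34 and did not pass (limma adjusted p = 0.318 and 0.269). Sox13 changed by 0.06 and did not pass either (limma adjusted p = 0.945).

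Markers of retinal cell types were read on the same arrays. Of all 18193 genes 1.74% rose and 0.269% fell. With the replicate block 6.73% of them rose and 388 of the 18193 fell. In bulk retina, fewer cells of a type and less RNA per cell cannot be told apart. All 5 reactive glia markers rose, with list means of 9.57 to 9.91 in light damaged and 6.998 to 7.36 in dark adapted arrays (log2). Of 8 microglia and macrophage markers 1 rose (Cd68), and 3 with the replicate block, with means of 6.28 to 6.53 in light damaged and 5.88 to 5.96 in dark adapted arrays. Of 4 measured rod markers 1 fell and of 4 cone markers 2 fell, and with the block 3 of each fell. None of 5 Müller glia markers passed, and with the block 2 rose and 2 fell. No marker of pigment epithelium, lens, vessels or blood passed without the block (5, 5, 5 and 4 measured). With it, Ttr of the pigment epithelium list rose (0.99, limma adjusted p = 0.0471) and Bfsp1 of the lens list fell (-1.12, adjusted p = 0.00028), both named after their values were seen. Lens means were 9.41 to 10.997 in light damaged and 9.63 to 10.96 in dark adapted arrays. Crygs of that list read 12.03, 12.24 and 13.21 in light damaged and 12.12, 12.79 and 13.35 in dark adapted arrays (replicates 1 to 3). Cryaa, Mip and Bfsp1 also increased with replicate number in both groups, and Bfsp2 in light damaged arrays only. These lens genes were named after their values were seen. Whether lens RNA bears on the replicate block was not tested. Blood means were 4.88 to 5.04 in light damaged and 4.78 to 5.11 in dark adapted arrays. They lay near the lower quartiles of the arrays (4.98 to 5.11). No value on this scale is at 0. The part of any cell type in the AP-1 changes was not tested.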

How the data were processed

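The values, deposited by the authors, are log2 expression from Affymetrix arrays made with RMA, per the submitters' processing notes; no version is stated there, and the log2 scale was read from the range (3.30 to 13.89). RMA normalizes between arrays, so a change in total RNA would not be seen. Groups come from the titles. Each gene was read by its probe set with the highest mean among those annotated to it alone (18193 genes); all 45037 non-control probe sets were also fitted. Groups were compared with limma 3.58.1 in R 4.3.3 (lmFit, eBayes), with Benjamini-Hochberg adjustment and a threshold of 0.05. The fit was tested on simulated data. No filter on level was used.

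Same-numbered arrays deviated together from their group means (correlations over probe sets of 0.731, 0.618 and 0.432, other pairs -0.48 to 0.00902). Deviations from a group mean cancel out within the group, so the low values of the other pairs follow in part from the high ones. The replicate block treats same-numbered arrays as pairs. That pairing is inferred from these correlations, as no label states it. Named genes were all members, up to 3 called genes with the largest change per pathway list or else the 1 with the smallest p, and the 3 genes most like Junb, Atf3 and Fos. Outside that rule are Jdp2, the matrix protease genes, Cd68 and the genes marked as named after their values were seen. Members and lists were chosen with earlier results of these data known. Alternatives were the block, quantile normalization again, centring on 6 reference genes, other choices of probe set, a filter on dim genes, trend and robust variances, and leaving out each array. The reference genes themselves changed by -0.11 to 0.70, with Actb highest (limma adjusted p = 0.091), so centring on them lowers every change.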

Additional observations from a re-analysis of the deposited data

How the results depend on the processing

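Jun, Junb and Atf3 passed the test under all 13 alternatives tried for each, and without any 1 array their adjusted p stayed at or below 0.0207. The number of the 10 members that rose was 3 in all alternatives but the replicate block, where it was 6. The probe sets of members that passed numbered 3 with reference gene centring and 3 with any 1 array left out, against 5, and 7 with the replicate block. Over all probe sets the share that rose was counted without these alternatives only (0.913%), so the counts of 3 and 7 have no share to be set against. Reference gene centring moved the median change of all genes to -0.14, against 0.03, and the calls over all genes to 162 higher and 110 lower; after quantile normalization again they were 327 and 162, with the replicate block 1225 and 388, and with 1 array left out 141 to 384 and 9 to 82, against 316 and 49. The sign turned for Fosl2 with the mean of probe sets (0.25) and with 1 array left out (-0.12 to 0.0013). It turned for Batf with quantile normalization again (-0.0077), with reference gene centring (-0.11) and with 1 array left out (-0.050 to 0.24). Among pair differences the sign turned for Fosl1 against Fosb with the mean of probe sets (0.094) and with 1 array left out (-0.19 to 0.21), and for Fosl1 against Fos with 1 array left out (-0.91 to 0.012, the last without dark adapted replicate 2). Fosb against Fos kept its sign at -0.098 without dark adapted replicate 2, against -0.54. The causes were not tested. The number of arrays limits all values.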
